A study of Mus musculus with 7 samples.

Results

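The genes described here are 54 genes of mitosis in the mouse, which encode kinetochore and spindle checkpoint proteins, mitotic kinases, regulators of the anaphase-promoting complex (APC/C), spindle and cytokinesis factors and condensin. They were named by gene symbol and kept where the mean was at least 10 normalized counts. All 54 were in the table of 25239 genes and all 54 passed, with means between 118 and 8891, so that no member lay just inside or outside the limit. The measurements were polyadenylated RNA sequencing of electroporated cortex from 7 C57BL/6J embryos taken at E15.5. In 3 brains, 1 from each of 3 litters, Breasi-CRISPR electroporation at E13.5 had inserted the Ccnd2 Thr280Ala variant, which changes threonine to alanine in cyclin D2. The silent CRISPR control had been electroporated at the same age in 4 brains, 2 of them from litter 1 and 1 each from litters 2 and 3. The labels give the genotype of all 7 brains as wild type, and only the region that received the electroporated mix was taken.

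Mitosis separates replicated chromosomes, which condensin compacts and on which kinetochores assemble at the centromeres. Kinetochores without a microtubule hold back anaphase through the spindle checkpoint, and once all are attached the APC/C with its activator Cdc20 marks securin and B-type cyclins for destruction. In the embryonic cortex, radial glia divide at the ventricle and intermediate progenitors divide in the subventricular zone, whereas neurons have left the cycle. Microglia and vessel cells in the tissue can divide as well. Cyclin D2 acts earlier, in G1, where D-type cyclins and their kinases prepare entry into S phase.

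The deposited data are 1 comparison with 1 mean per gene over all libraries, so values per brain are not analysed here. It gives the log2 fold change of each gene with both signs, and the sign printed here, which sets every direction below, was chosen as follows. Genes with a single read formed 7 classes of equal values, 3 above 0 and 4 below 0, which matches 3 edited and 4 control libraries. Positive log2 fold changes are therefore read as higher in Ccnd2 Thr280Ala brains. The same classes gave estimated depths of 20800000 to 32800000 reads in the edited libraries and 19400000 to 29000000 reads in the control libraries. Defining markers of cortex were abundant, with means of 14403 normalized counts for Tbr1 and 1848 for Pax6 in the authors' deposited table. Markers of other cells were present too. There, means of choroid plexus markers ran from 53.2 to 2576, of meningeal markers from 45.3 to 1963 and of interneuron markers from 469 to 2859. In this bulk tissue, a larger number of dividing cells and more RNA per dividing cell cannot be told apart. The share of cells that carried the edit was not measured in the table.

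Most of the 54 genes lay slightly higher in edited brains, and none passed the test. In the authors' deposited table, 49 of 54 log2 fold changes were above 0 and 5 were below 0, against 48.0% above 0 among all 14638 tested genes. The median of the 54 was 0.18, a 1.13-fold difference, with quartiles at 0.11 and 0.23, and the median over all tested genes was -0.01. The values ran down from 0.31 for Ect2, an activator of the small GTPase RhoA at the division plane, to -0.12 for Pttg1, which encodes securin. At an adjusted DESeq2 p below 0.05, 0 of 54 were called, where the background was 0.246% of tested genes. At an unadjusted DESeq2 p below 0.05 there were also 0 of 54, where the background was 5.86%. The adjusted DESeq2 p was not below 0.1 in any of the 54, where the background was 0.389% of tested genes. With adjustment over all 18976 genes with a p-value there were 0 of 54 as well, where the background was 0.163%. The smallest unadjusted DESeq2 p in the authors' deposited table was 0.0512, for Top2a, with an adjusted p of 0.858. The members had been chosen with earlier results of these data known, and all 54 values rest on the same 7 brains, so the count of 49 is a description.

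**Figure D1:**
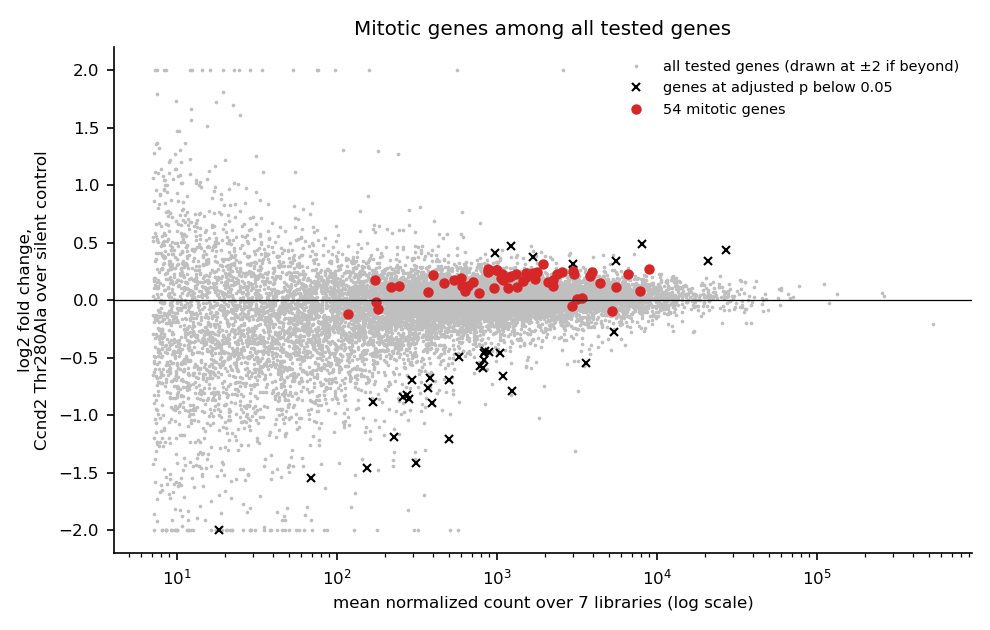
Log2 fold change (Ccnd2 Thr280Ala over silent control) against the mean normalized count, for all 14638 tested genes (grey), the 36 called genes (crosses) and the 54 mitotic genes (red), from the authors' deposited table. The red points sit in a band between -0.12 and 0.31, mostly above 0, inside the grey cloud.

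The errors set what could have been called. The SE of the 54 log2 fold changes ran between 0.07 and 0.28 in the authors' deposited table, with a median of 0.15. Every one of the 54 intervals (95%, from the SE) included 0, the highest upper end being 0.72 and the lowest lower end -0.60. Among the 36 called genes the smallest Wald statistic was 3.85 in size, against at most 1.95 among the 54. At the median SE of the 54, a Wald statistic of that size takes a log2 fold change of 0.58, or 1.49-fold. A difference near the observed median was thus not detectable for a single gene with these libraries.

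**Figure D2:**
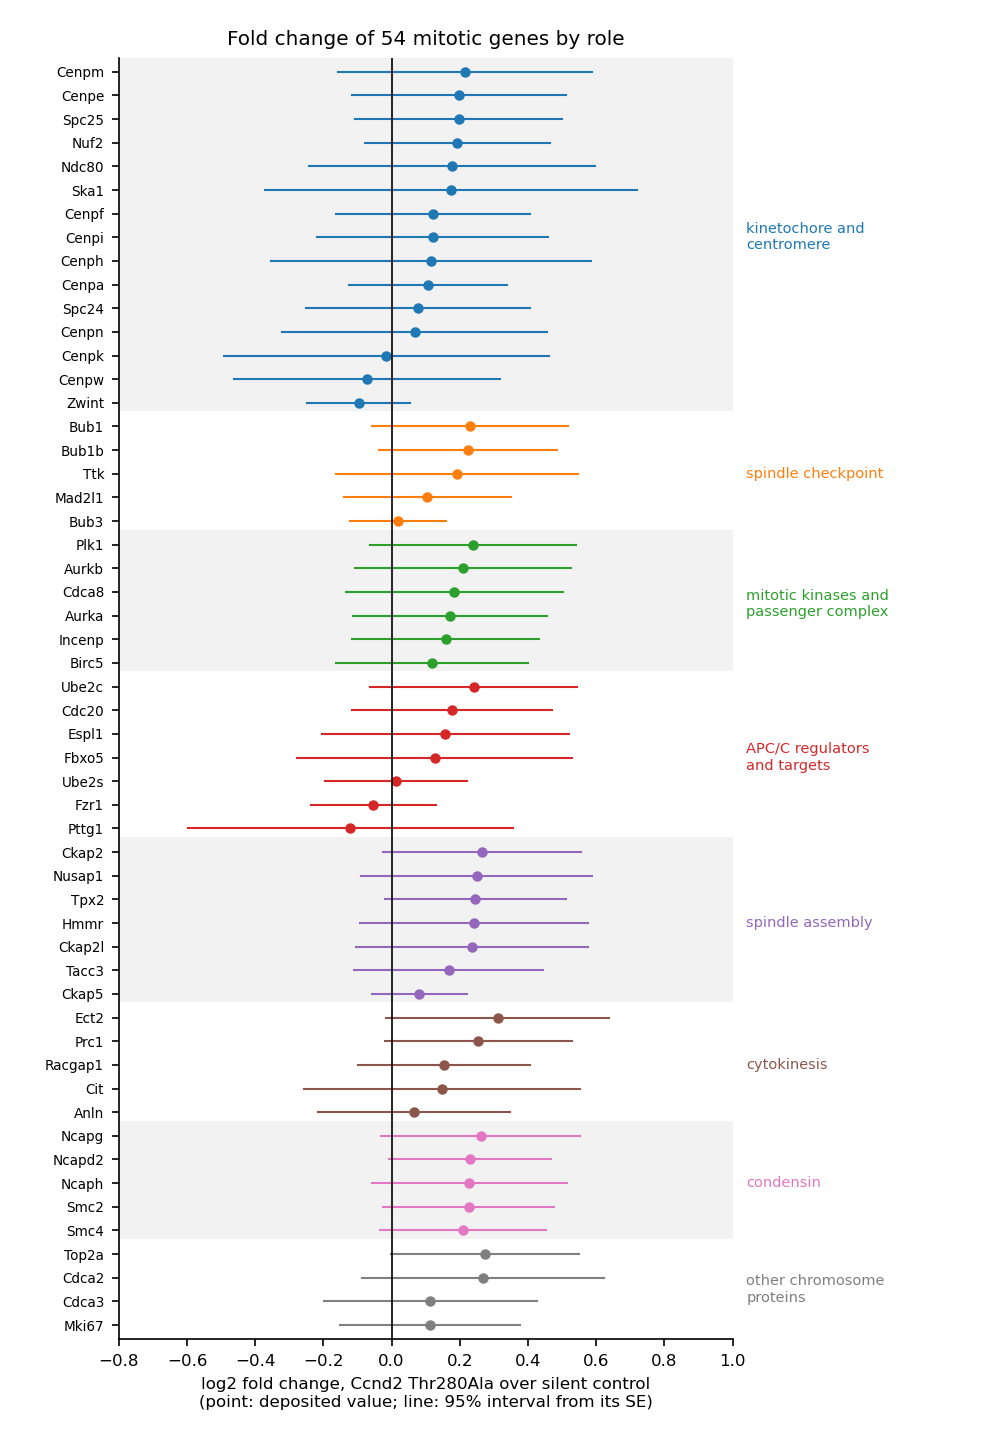
Log2 fold change of each of the 54 genes with its 95% interval, grouped by role, from the values and SEs of the authors' deposited table. All intervals cross 0, and the 5 points left of 0 are Cenpk, Cenpw, Zwint, Fzr1 and Pttg1.

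Many mitotic genes carry a cell cycle homology region (CHR) near the start of transcription, through which the DREAM complex holds them down in G1, and CCAAT boxes, which bind the factor NF-Y, a little upstream. Promoters of 47 of the 54 genes were found in RefSeq (build GRCm38.p6), 52 sequences in all, each with 250 bases before the listed start and 50 after it. The listed start is the outer end of the gene in the RefSeq gene table in 23 of the 47 genes, so that positions from the start are positions within these sequences. The CHR letters TTTGAA, searched on both strands, occurred in 33 of 52 promoters (63.5%), against 17.9% of all 32851 promoters and 11.9% of the 14775 promoters of tested genes. Of the 63 promoters found for 64 other genes of mitosis, 20 held TTTGAA (31.7%). CCAAT on either strand occurred in 41 of 52 (78.8%). It occurred in 37.4% of all promoters, 37.5% of those of tested genes and 39.7% of the 63 other mitotic promoters. Both motifs occurred together in 31 of 52 (59.6%). The pair occurred in 6.95% of all promoters, 4.81% of those of tested genes and 12.7% of the 63. GGCGG, a GC-rich motif like the cell cycle dependent element beside the CHR, occurred in 48 of 52 (92.3%), but also in 78.1% of promoters of tested genes. Of the 30 genes with TTTGAA, 27 had a match between 50 bases before and 50 bases after the listed start. CCAAT and TTTGAA can share 1 base, as they do in Cenpw, and a match is a description of the sequence, not of a bound site.

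The promoters that follow show both motifs in the kinetochore, checkpoint, APC/C, cytokinesis and condensin groups. Each is the gene of its group with the smallest p among those with 1 promoter and both motifs, and Fzr1 is added as an example without TTTGAA. Capitals mark TTTGAA and CCAAT, or their reverse complements TTCAAA and ATTGG, and each sequence runs 5′ to 3′ on the strand of its gene.
Spc25: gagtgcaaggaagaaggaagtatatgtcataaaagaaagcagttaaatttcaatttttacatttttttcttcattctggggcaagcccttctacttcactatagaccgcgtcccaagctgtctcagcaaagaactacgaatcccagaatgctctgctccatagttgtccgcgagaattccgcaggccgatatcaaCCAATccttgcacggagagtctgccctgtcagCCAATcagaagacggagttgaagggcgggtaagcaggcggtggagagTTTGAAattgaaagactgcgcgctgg
Bub1b: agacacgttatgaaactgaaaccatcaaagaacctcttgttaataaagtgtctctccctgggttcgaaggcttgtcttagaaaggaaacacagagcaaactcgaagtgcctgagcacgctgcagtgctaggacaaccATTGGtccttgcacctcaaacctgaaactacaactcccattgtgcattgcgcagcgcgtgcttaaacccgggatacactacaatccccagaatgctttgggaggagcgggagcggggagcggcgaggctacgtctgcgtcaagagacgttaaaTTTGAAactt
Ube2c: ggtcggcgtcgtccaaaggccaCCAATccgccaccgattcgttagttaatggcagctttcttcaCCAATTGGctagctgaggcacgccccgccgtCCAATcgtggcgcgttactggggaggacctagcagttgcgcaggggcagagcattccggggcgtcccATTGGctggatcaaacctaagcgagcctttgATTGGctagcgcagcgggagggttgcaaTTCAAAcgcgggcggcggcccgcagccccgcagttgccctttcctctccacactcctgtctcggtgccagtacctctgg
Racgap1: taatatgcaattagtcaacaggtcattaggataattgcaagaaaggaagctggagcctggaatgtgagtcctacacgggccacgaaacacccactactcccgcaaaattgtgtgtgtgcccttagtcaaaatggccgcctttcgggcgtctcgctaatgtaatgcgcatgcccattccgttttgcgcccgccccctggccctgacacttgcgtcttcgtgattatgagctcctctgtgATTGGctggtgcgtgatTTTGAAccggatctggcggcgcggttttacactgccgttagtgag
Ncapd2: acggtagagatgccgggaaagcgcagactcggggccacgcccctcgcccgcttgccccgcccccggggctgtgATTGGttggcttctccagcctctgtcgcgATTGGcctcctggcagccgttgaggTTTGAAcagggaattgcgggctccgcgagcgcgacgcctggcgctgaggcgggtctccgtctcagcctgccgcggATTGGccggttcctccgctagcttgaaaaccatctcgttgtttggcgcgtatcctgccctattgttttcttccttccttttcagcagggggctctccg
Fzr1: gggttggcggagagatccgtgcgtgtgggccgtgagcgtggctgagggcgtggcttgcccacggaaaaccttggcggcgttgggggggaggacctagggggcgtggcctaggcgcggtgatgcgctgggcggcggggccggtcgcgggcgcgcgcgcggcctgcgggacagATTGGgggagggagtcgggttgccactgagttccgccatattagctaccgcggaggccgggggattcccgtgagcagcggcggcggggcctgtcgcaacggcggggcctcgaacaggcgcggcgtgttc
Those of Spc25 (chr2:69206164-69206463), Racgap1 (chr15:99651607-99651906), Ncapd2 (chr6:125191537-125191836) and Fzr1 (chr10:81378321-81378620) lie on the minus strand. Those of Bub1b (chr2:118597961-118598260) and Ube2c (chr2:164769679-164769978) lie on the plus strand. Counted from the listed start, TTTGAA begins at base 25 in Spc25, base 41 in Bub1b and base 6 in Racgap1. In Ube2c its reverse complement begins at base -29, downstream of 6 CCAAT matches, and in Ncapd2 TTTGAA begins farther upstream, at base -123, with a CCAAT match downstream of it at base -48. Of the 30 genes with TTTGAA, 29 were above 0 in the authors' deposited table, where their log2 fold changes had a median of 0.18 and a range of -0.07 to 0.31. Of the 17 matched genes without it, 13 were above 0, with a median of 0.12 and a range of -0.12 to 0.25 there. The ranges overlap over most of their length, and the difference between these sets was not tested.

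**Figure D3:**
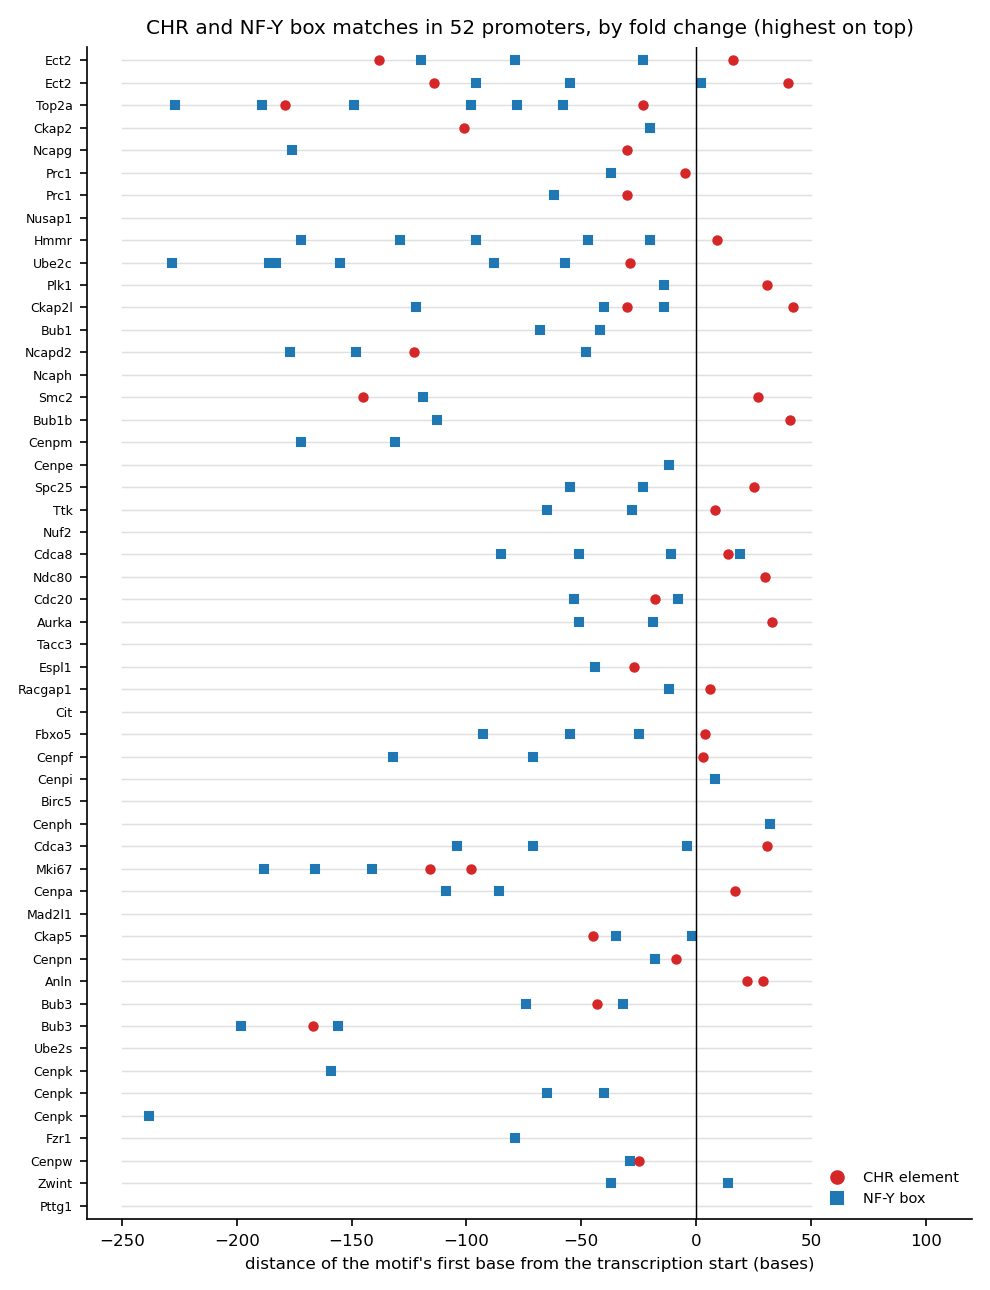
CHR (red circles) and NF-Y box (blue squares) matches in 52 promoters of 47 genes, by distance in bases from the listed start. The axis calls this the transcription start. Genes are in order of log2 fold change, highest on top. CHR matches gather around the listed start and NF-Y boxes mostly upstream of them. At the bottom, 4 of the 5 genes with values below 0 have no CHR match.

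The kinetochore and centromere genes were the largest group by number. Of 15 genes, 12 were above 0, with a median log2 fold change of 0.12 and a range of -0.10 to 0.22 in the authors' deposited table, and 0 were called. Weighting each gene by its precision brought the summary of this group to 0.07, because its most precise member lay below 0. That member, Zwint, is a kinetochore protein that links the microtubule-binding network to checkpoint proteins (chromosome 10, 72654845 to 72674964). Zwint stood at -0.10 (SE 0.08, mean 5269, p = 0.211 by DESeq2) in the authors' deposited table. The highest of the group was Cenpm, a subunit of the inner kinetochore network, at 0.22 (SE 0.19, mean 401, p = 0.255 by DESeq2) in the authors' deposited table. The NDC80 complex, the main microtubule binder of the kinetochore, consists of Ndc80, Nuf2, Spc24 and Spc25. Its 4 subunit genes were all above 0. Nuf2 stood at 0.19 (SE 0.14, mean 1061, p = 0.165 by DESeq2) in the authors' deposited table. Spc25, whose promoter is printed above, stood at 0.20 (SE 0.15, mean 1200, p = 0.203 by DESeq2) in the authors' deposited table. Ndc80 itself was at 0.18 (SE 0.21) and Spc24 at 0.08 (SE 0.17) in the authors' deposited table. Spc24 thus lay lower than its 3 partners, by less than the error of any of them.

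Among the 54, inner kinetochore genes ran from -0.07 for Cenpw to 0.22 for Cenpm, described above, in the authors' deposited table. Their difference from the outer kinetochore genes was not tested. Cenpa encodes the histone H3 variant that defines centromeric chromatin, and it stood at 0.11 (SE 0.12) in the authors' deposited table. Cenph, Cenpi and Cenpn belong to the constitutive network on that chromatin. In the authors' deposited table they were at 0.12 (SE 0.24), 0.12 (SE 0.17) and 0.07 (SE 0.20). Cenpk and Cenpw, further members of that network, were below 0 in the authors' deposited table, at -0.02 (SE 0.24) and -0.07 (SE 0.20). Both are low in count, with means of 176 and 182 there, and their intervals are among the widest of the 54. Cenpe, a kinesin motor that carries chromosomes to the spindle equator, was at 0.20 (SE 0.16) in the authors' deposited table. Cenpf, a large protein of the outer corona, was at 0.12 (SE 0.15) in the authors' deposited table. Ska1, part of the complex that follows shortening microtubule ends, was at 0.17 with the widest SE of the 54, 0.28, in the authors' deposited table.

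All 5 spindle checkpoint genes were above 0, with a median log2 fold change of 0.19 in the authors' deposited table, and 0 were called. The kinase gene Bub1 stood at 0.23 (SE 0.15, mean 1085, p = 0.116 by DESeq2) in the authors' deposited table. Bub1b, which encodes the inhibitor BubR1 of APC/C with Cdc20, stood at 0.22 (SE 0.13, mean 2363, p = 0.0924 by DESeq2) in the authors' deposited table. Ttk, the kinase MPS1 that starts checkpoint signalling, was at 0.19 (SE 0.18), and Mad2l1, which holds Cdc20, was at 0.10 (SE 0.13) in the authors' deposited table. Bub3, the partner through which Bub1 and BubR1 reach the kinetochore (chromosome 7, 131560222 to 131571895), stood apart in precision. Its log2 fold change was 0.02 (SE 0.07, mean 3430, p = 0.797 by DESeq2) in the authors' deposited table, with a 95% interval of -0.12 to 0.16. The precision-weighted mean of the 5 genes was 0.10, lower than their median because of Bub3. The values of Bub1, Bub1b and Ttk lay above the upper end of the Bub3 interval, but the differences between genes were not tested.

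The mitotic kinases and the chromosomal passenger complex, which corrects wrong attachments and later acts at the midzone, were all above 0. The 6 genes of this group had a median log2 fold change of 0.18 and a narrow range of 0.12 to 0.24 in the authors' deposited table, with 0 called. Plk1, a kinase of mitotic entry and centrosome maturation, stood at 0.24 (SE 0.15, mean 1694, p = 0.123 by DESeq2) in the authors' deposited table. Aurkb, the kinase of the passenger complex, stood at 0.21 (SE 0.16, mean 1225, p = 0.196 by DESeq2) in the authors' deposited table. Its partners Cdca8 (borealin), Incenp and Birc5 (survivin) were in the authors' deposited table at 0.18 (SE 0.16), 0.16 (SE 0.14) and 0.12 (SE 0.14). Birc5, the lowest of this group, had a mean of 606 there and an unadjusted p = 0.405 by DESeq2. Aurka, the kinase of the spindle poles, was at 0.17 (SE 0.14) in the authors' deposited table. These 6 values differed among themselves by less than the SE of any one of them.

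The APC/C group was the most mixed, with 5 of 7 genes above 0, a median log2 fold change of 0.13 and a range of -0.12 to 0.24 in the authors' deposited table, and 0 called. The precision-weighted mean of the group was 0.05. APC/C receives ubiquitin from E2 enzymes. Ube2c, which starts the chains, stood at 0.24 (SE 0.15, mean 2559, p = 0.120 by DESeq2) in the authors' deposited table. Ube2s, which extends them, stood at 0.01 (SE 0.11, mean 3163) in the authors' deposited table. APC/C works with an activator. Cdc20, which acts until anaphase, was at 0.18 (SE 0.15, mean 2239, p = 0.237 by DESeq2) in the authors' deposited table. Fzr1, which encodes the activator Cdh1 of late mitosis and G1, was at -0.05 (SE 0.09, mean 2955, p = 0.567 by DESeq2) in the authors' deposited table. The differences between the E2 enzymes and between the activators were not tested. The APC/C inhibitor Fbxo5 (EMI1) was at 0.13 (SE 0.21), and Espl1, the protease separase that cuts cohesin, was at 0.16 (SE 0.19) in the authors' deposited table. Pttg1, the securin that keeps separase inactive (chromosome 11, 43420250 to 43426251), had the lowest value of the 54, -0.12 (SE 0.24, mean 118, p = 0.619 by DESeq2), in the authors' deposited table. Pttg1 was also the gene with the lowest mean, and its interval, -0.60 to 0.36, holds the median of the 54. In Ube2c, 22.8% of the exonic length is shared with Tnnc2 on the opposite strand. Whether the counting used strand is not stated in the sources used here.

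Spindle assembly genes had the highest median of the 8 role groups, with all 7 above 0, a median log2 fold change of 0.24 and 0 called in the authors' deposited table. Tpx2, which activates Aurora A and nucleates microtubules near chromosomes, stood at 0.25 (SE 0.14, mean 3952, p = 0.0704 by DESeq2) in the authors' deposited table. Ckap2, a microtubule-stabilizing protein of the spindle, stood at 0.27 (SE 0.15, mean 987, p = 0.0721 by DESeq2) in the authors' deposited table. Its paralog Ckap2l was at 0.24 (SE 0.17), and Nusap1, which binds microtubules near chromatin, was at 0.25 (SE 0.17) in the authors' deposited table. Hmmr, a spindle pole protein, was at 0.24 (SE 0.17) and Tacc3 at 0.17 (SE 0.14) in the authors' deposited table. Tacc3 works on spindle fibres with Ckap5, a microtubule polymerase that also acts in cells that do not divide. Ckap5 was the lowest of the 7, at 0.08 (SE 0.07, mean 7866, p = 0.248 by DESeq2) in the authors' deposited table, with the smallest SE of the 54. Weighted by precision, the group's mean was 0.17. Higher weighted means were those of condensin at 0.23, other mitotic chromosome proteins at 0.19, and cytokinesis and the mitotic kinase group, both at 0.18.

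All 5 cytokinesis genes were above 0, with a median log2 fold change of 0.15 and 0 called in the authors' deposited table. Ect2 (chromosome 3, 27097222 to 27153878) had the highest value of the 54, 0.31 (SE 0.17, mean 1955, p = 0.0635 by DESeq2), in the authors' deposited table. Of all tested genes, 4.00% had a higher log2 fold change than Ect2. Prc1, which bundles the microtubules of the central spindle, stood at 0.25 (SE 0.14, mean 3016, p = 0.0694 by DESeq2) in the authors' deposited table. In Prc1, 26.6% of the exonic length is shared with Rccd1 on the opposite strand. Racgap1, the centralspindlin subunit that recruits Ect2, was at 0.15 (SE 0.13), and Cit, the citron kinase of the midbody, was at 0.15 (SE 0.21) in the authors' deposited table. Anln, the anillin that ties actin to the cleavage furrow, was the lowest of the 5, at 0.07 (SE 0.14, mean 777, p = 0.644 by DESeq2), in the authors' deposited table.

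The condensin genes lay closest together. All 5 subunit genes of condensin I and of the core it shares with condensin II were above 0, between 0.21 and 0.26 with a median of 0.23, in the authors' deposited table, and 0 were called. Ncapd2 (chromosome 6, 125168007 to 125191701) stood at 0.23 (SE 0.12, mean 6640, p = 0.0580 by DESeq2) in the authors' deposited table. Smc2, an ATPase of the ring, stood at 0.23 (SE 0.13, mean 3036, p = 0.0766 by DESeq2) in the authors' deposited table. Ncapg, the highest, was at 0.26 (SE 0.15, mean 1000.3, p = 0.0794 by DESeq2) in the authors' deposited table, and 20.8% of its exonic length is shared with Lcorl on the opposite strand. Ncaph was at 0.23 (SE 0.15) in the authors' deposited table. Smc4, the other ATPase and the lowest, was at 0.21 (SE 0.12, mean 3827, p = 0.0911 by DESeq2) in the authors' deposited table. The spread of the 5 values, an SD of 0.02 over genes, is smaller than the SE of each. Genes measured in the same brains share their deviations, so this closeness is not 5 separate observations.

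The other mitotic chromosome proteins were above 0 in 4 of 4 genes, with a median log2 fold change of 0.19 and 0 called in the authors' deposited table. Top2a, the topoisomerase that untangles sister chromatids (chromosome 11, 98992943 to 99024189), stood at 0.27 (SE 0.14, mean 8891, p = 0.0512 by DESeq2) in the authors' deposited table. Cdca2, which brings a phosphatase to chromatin at anaphase, stood at 0.27 (SE 0.18, mean 884, p = 0.139 by DESeq2) in the authors' deposited table. Mki67, the coat protein of mitotic chromosomes used as a marker of proliferation, was the lowest, at 0.11 (SE 0.13, mean 5549, p = 0.401 by DESeq2), in the authors' deposited table. Cdca3, a factor of mitotic entry, was at 0.11 (SE 0.16) in the authors' deposited table. Top2a and Mki67, both common markers of proliferation, thus stood at the top and the bottom of this group.

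Transcript levels were compared between genes as the mean normalized count per kilobase of exon, with merged exons of the GENCODE M21 basic annotation. The 54 genes spanned 43.3 to 2555 counts per kb with a median of 477. Ube2s was the most abundant per length, followed by Top2a at 1703, Racgap1 at 1447, Ncapd2 at 1434 and Zwint at 1415 counts per kb. The lowest were Cenpw at 43.3, Cit at 48.7, Ska1 at 64.5 and Pttg1 at 66.9 counts per kb. By role, kinetochore and centromere genes had the lowest median, 201 counts per kb, and APC/C genes the highest, 967 counts per kb. Subunits of 1 complex were not equal at the transcript level. In condensin, Ncapd2 at 1434 and Smc4 at 887 counts per kb stood above Smc2 at 562, Ncaph at 492 and Ncapg at 270. In the NDC80 complex, Spc25 at 757 counts per kb stood above Nuf2 at 384, Spc24 at 279 and Ndc80 at 247. In the passenger complex, Cdca8 at 921, Incenp at 641 and Aurkb at 627 counts per kb stood above Birc5 at 178. Annotated length can exceed the part that is expressed, as untranslated ends differ between tissues, so that such levels are approximate.

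**Figure D4:**
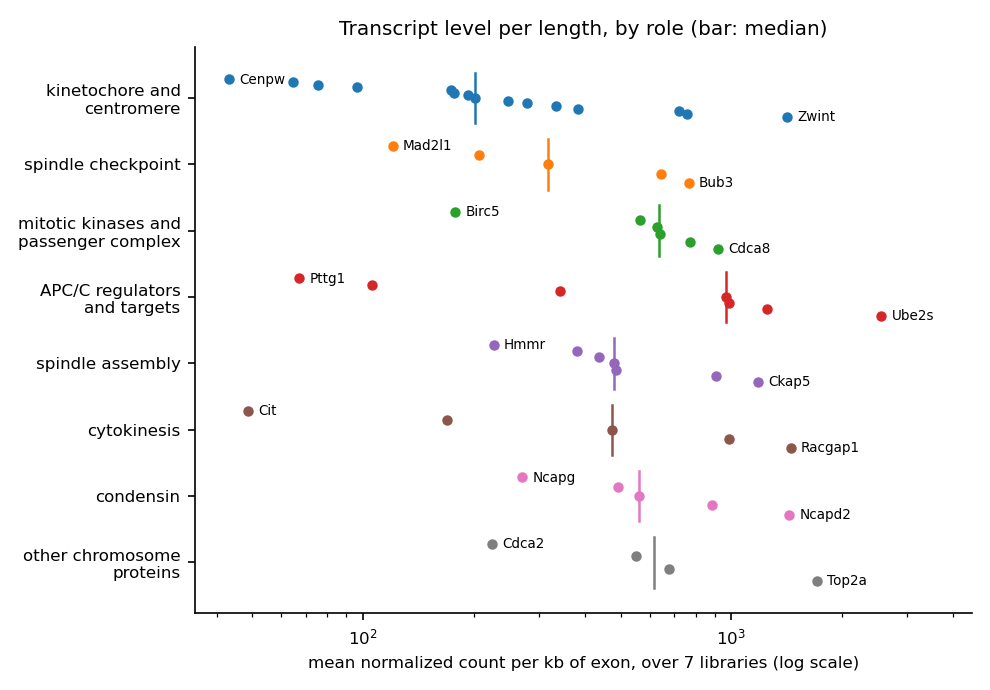
Mean normalized count per kb of exon (log scale) for the 54 genes by role, with a bar at each group's median and the lowest and highest gene named. Kinetochore and centromere genes centre on 201 counts per kb, below the other groups, and Ube2s lies highest at 2555.

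Most of the 54 genes had a larger error than equally abundant genes. The SE of each gene was divided by the median SE of all tested genes within 2-fold of its mean. This ratio had a median of 1.44, with quartiles at 1.23 and 1.60, and it was above 1 in 48 of 54 genes, against 44.2% of the tested genes in the same range of means. The highest ratios were those of Top2a at 1.88, Nusap1 at 1.82 and Ect2 at 1.79. The 6 genes at a ratio of 1 or less were Bub3 at 0.87, Pttg1 at 0.88, Cenpw and Cenpi at 0.90, Ckap5 at 0.94 and Zwint at 0.99. Their log2 fold changes ran between -0.12 and 0.12 in the authors' deposited table. The 23 genes with a ratio above 1.5 all lay between 0.11 and 0.31 there. Across the 54 genes the ratio and the log2 fold change went together, with Spearman's rho 0.66 and Pearson's r 0.73. This describes genes that share the same 7 libraries and is no test. The 5 genes below 0 had ratios between 0.88 and 1.10. The SD of the log2 fold changes over the 54 genes was 0.10, smaller than their median SE of 0.15. The 49 values above 0 come from genes measured in the same brains and are not independent of each other.

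**Figure D5:**
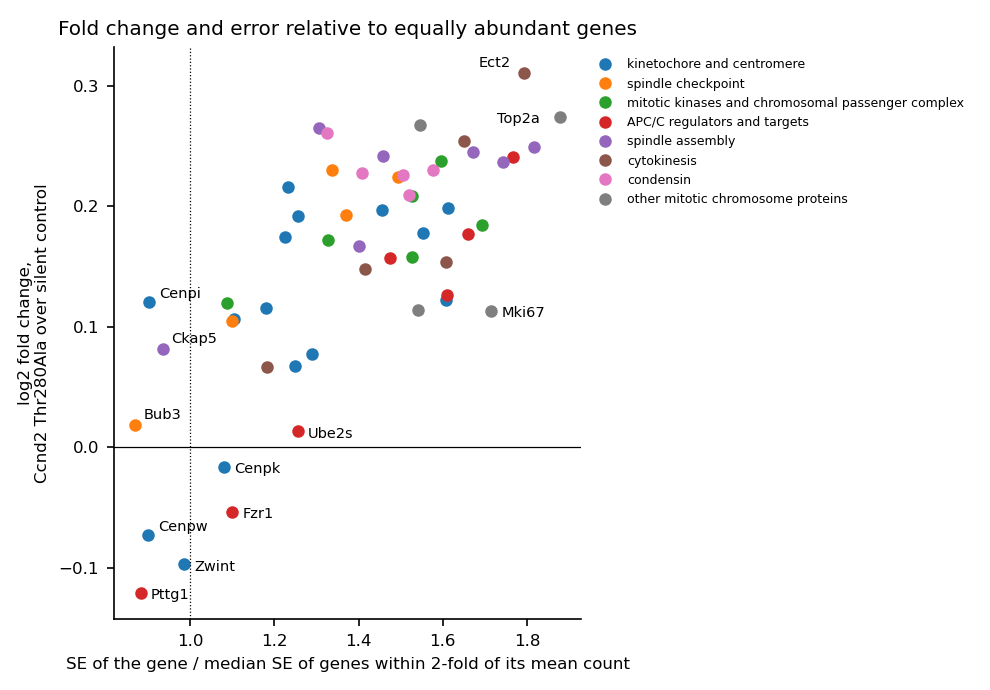
Log2 fold change (Ccnd2 Thr280Ala over silent control) against the SE ratio of each of the 54 genes, coloured by role, from the authors' deposited table. The 6 genes with ratios of 1 or less lie on the left between -0.12 for Pttg1 and 0.12 for Cenpi. Genes with ratios above 1.5 lie between 0.11 and 0.31.

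Other genes of the same machinery had a lower median and a wider range. Of 64 such genes, 51 were above 0, with a median log2 fold change of 0.09, 0 were called, and 5 had an unadjusted DESeq2 p below 0.05, all 5 higher, in the authors' deposited table. That share is 7.81%, near the background of 5.86%. Of these 64, 4 had a higher log2 fold change than any of the 54 in the authors' deposited table, and the difference between the sets was not tested. The core subunits of APC/C, which are made throughout the cycle, split with 8 of 14 above 0 and a median of 0.04 in the authors' deposited table. Their smallest p-values belonged to Anapc4 at 0.13 (SE 0.08, mean 2435, p = 0.0953 by DESeq2) and Anapc11 at -0.13 (SE 0.08, mean 1956, p = 0.107 by DESeq2) in the authors' deposited table. TTTGAA occurred in 2 of their 16 promoters, and in 2 of 9 promoters of cohesin genes. Other kinetochore genes were above 0 in 16 of 18 cases, with a median of 0.11 in the authors' deposited table. Among them Cenpl, of the inner network, was at 0.37 (SE 0.17, mean 305, p = 0.0273 and adjusted p = 0.713 by DESeq2) and Cenpu at 0.50 (SE 0.30, mean 154, p = 0.0918 by DESeq2) in the authors' deposited table. Other checkpoint genes were above 0 in 8 of 10 cases, with a median of 0.09, and Zw10 at 0.20 (SE 0.14, mean 689, p = 0.143 by DESeq2) and Sgo1 at 0.26 (SE 0.18, mean 499, p = 0.157 by DESeq2) had the smallest p-values in the authors' deposited table. Other cytokinesis genes were above 0 in 6 of 7 cases, with a median of 0.10, led by Cep55 at 0.33 (SE 0.18, mean 496, p = 0.0717 by DESeq2) and Kif20a at 0.23 (SE 0.14, mean 1291, p = 0.0869 by DESeq2) in the authors' deposited table.

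Condensin II works in the nucleus from early prophase, and its 3 specific subunit genes were above 0. Ncapg2 had a log2 fold change of 0.19 (SE 0.12, mean 1067, p = 0.104 by DESeq2) and Ncapd3 one of 0.18 (SE 0.12, mean 1110, p = 0.143 by DESeq2) in the authors' deposited table. Ncaph2 had 0.01 (SE 0.08) in the authors' deposited table, and the differences among the 3 were not tested. Cohesin genes, whose ring holds sister chromatids together until separase cuts it, were above 0 in 10 of 12 cases, with a median of 0.13 in the authors' deposited table. Cohesin held 4 of the 5 genes with an unadjusted DESeq2 p below 0.05. Esco2, which locks cohesin on chromatin in S phase, was at 0.54 (SE 0.22, mean 460.4, p = 0.0124 and adjusted p = 0.547 by DESeq2) in the authors' deposited table. Stag1, a cohesin subunit, was at 0.18 (SE 0.08, mean 3002, p = 0.0230 by DESeq2) in the authors' deposited table. Stag2 and the cohesin release factor Wapl each had 0.16 (SE 0.07) in the authors' deposited table. None of these passed adjustment over all tested genes.

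Markers of the cell types in the tissue are given beside these values, and none passed the test. All 5 markers of intermediate progenitors were above 0, with a median log2 fold change of 0.20, and 6 of 8 markers of apical radial glia were, with a median of 0.16, in the authors' deposited table. Of 8 markers of cortical neurons, 2 were above 0 and the median was -0.05 in the authors' deposited table. Markers of cells from outside the neuroepithelium were below 0 in 7 of 7 cases for microglia and 5 of 5 for endothelium, with medians of -0.64 and -0.28 in the authors' deposited table. Meningeal markers were above 0 in 2 of 6 cases (median -0.51) and interneuron markers in 5 of 6 (median 0.21), and the authors' deposited table gave them median SEs of 1.32 and 0.66. Choroid plexus markers were above 0 in 4 of 4 cases, with a median of 3.68 and a median SE of 1.88 in the authors' deposited table. None of these 49 marker genes was called, and none was at 0, the lowest mean being 45.3 for Foxc2. At an unadjusted DESeq2 p below 0.05 there were 14 of 49 (28.6%) in the authors' deposited table, against the background of 5.86%. These were 5 of 7 microglial markers, 1 endothelial and 1 meningeal marker, all lower, and 3 of 4 choroid plexus markers, 2 of radial glia and 2 of intermediate progenitors, all higher. Their summed level in each group cannot be taken from 1 mean per gene. The part of these cell types in the values of the 54 mitotic genes was not tested.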

How the data were processed

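All values come from 1 table of the authors' DESeq2 comparison of 3 Ccnd2 Thr280Ala and 4 silent control brains. Per the submitters' processing notes, cutadapt, featureCounts and DESeq2 were used with genome build mm10, and the sources used here do not give the aligner, annotation, versions or strand setting. Per the file headers, the authors deposited a mean signal per gene (read counts divided by size factors, averaged over libraries), the log2 fold change with both signs, its standard error on the log2 scale, a Wald score, and unadjusted and adjusted p-values. The values printed here are those headed Log2_FC, whose sign is opposite to that of the Wald score. The sheet's name says that litters were in the fit. Each brain is a separate embryo.

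No model was refitted, since the planned fits needed counts per library. Benjamini-Hochberg adjustment over the 14638 tested genes, recomputed, differed from the deposited adjusted p-values by at most 4.01e-05. Calls use the deposited adjusted p below 0.05. Genes with a mean below 0.2 and values shared by at least 50 genes gave the direction and the depths (694 genes in 7 classes, 19400000 to 32800000 reads). List medians, precision-weighted means, SE ratios (genes within 2-fold of the mean) and promoter matches were computed in Python 3.11.15 with numpy 2.4.6, pandas 2.3.3 and scipy 1.17.1. Of these steps, the SE ratio had first been tested on simulated data, as had the Benjamini-Hochberg adjustment. The promoter search and the list medians had not. Gene positions and exon lengths are from GENCODE M21, which is on the same assembly as mm10.

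Members and lists were chosen with earlier results of these data known. Full values are given for the 2 genes with the smallest p and the highest and lowest genes of each role group, and for the 2 genes with the smallest p of each other list. The SE ratio limits of 1 and 1.5 were chosen after the values were seen. The alternatives tried were another set of genes for adjustment, an adjusted p below 0.1, other filters on the mean, centring, weighting, second roles, other windows and a wider motif.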

Additional observations from a re-analysis of the deposited data

How the results depend on the processing

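The count of 0 called genes held with adjustment over all 18976 genes with a p-value and with an adjusted p below 0.1. All 54 genes have a mean of at least 100, so the other filters gave the same 49 genes above 0. Centred on genes of equal abundance, 48 were above 0 and the median was 0.17, and the precision-weighted mean was 0.13. Some role medians moved by over 1.5 times. Weighted by precision, the APC/C group came to 0.05, the checkpoint to 0.10 and the kinetochore group to 0.07. With second roles, the APC/C group came to 0.07 and the other chromosome proteins to 0.11. All role values stayed above 0 under these alternatives. The SE ratio was 1.46 with a window of 1.5-fold and 1.41 with 3-fold. With TTCGAA added, the motif share was 69.2%. This count includes every promoter with TTTGAA, so it could only stay equal or rise. The share with TTTGAA alone had an exact binomial 95% interval of 49.0% to 76.4%. That interval counts each promoter as separate, though some belong to the same gene. The sheet's name says that litters were in the authors' fit. Beyond that fit, no paired analysis was possible because the table holds no values per library. For the same reason leaving out each replicate, edgeR and other size factors were not run.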
